A study of Caenorhabditis elegans with 6 samples.

Results

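The genes described are 47 genes of clathrin-mediated uptake and endosomal sorting in the nematode Caenorhabditis elegans, out of 46932 genes in a table of read counts. They were taken by WormBase symbol (chc-1, rab-5, vps-35 and so on), and all 47 matched 1 row each. They cover the clathrin coat, its adaptors, the Rab GTPases of endosomes, the recycling machinery, retromer, the ESCRT complexes, and the HOPS tether of late endosomes. The libraries hold RNA from young adult males, sorted by fluorescence, which the labels name as rectal valve and rectal gland cells.

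There were 6 libraries in all, each made from 5000 sorted cells. The csr-1a mutant group has 3 libraries from worms with the csr-1a allele gfp::sl2::2xflag::aid::csr-1a_delta. The wild-type group has 3 libraries from worms whose csr-1a carries the tag alone, gfp::sl2::2xflag::aid::csr-1a. Both groups share the him-8 background, which yields males. Both carry the extrachromosomal arrays Ex(pnc-1p::wrmScarlet) and Ex(pcs-1p::wrmScarlet), in which the pnc-1 and pcs-1 promoters drive the sort marker wrmScarlet. In both groups the parent generation underwent heat stress as late L4 larvae. The wild-type group is therefore not an unmodified strain. csr-1 encodes an Argonaute, a protein that binds small RNAs, and the stated question was how the csr-1a mutation changes the shape of the tail. The libraries are labelled as biological replicates, but separate cultures are not stated, so p-values measure the spread between these libraries, which may be technical.

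Clathrin forms a cage around a bud of plasma membrane, adaptors such as AP2 tie the cage to the cargo, and dynamin cuts the bud free. The vesicle fuses with an early endosome marked by RAB-5, from which cargo is recycled to the surface, returned to the Golgi by retromer, or packed by the ESCRT complexes into internal vesicles bound for the lysosome. RAB-7 and HOPS carry out the last fusion. In C. elegans many of these genes were found by uptake defects in the scavenging coelomocytes of the body cavity or in oocytes taking up yolk, which gave them names such as cup (coelomocyte uptake) and rme (receptor-mediated endocytosis).

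Total counts per library were 22470932 to 47890863 in the mutant and 17748698 to 26577422 in wild type, of which 74.4% to 78.4% fell on ribosomal RNA. Mutant replicate 2 and wild-type replicate 3 stood apart by having the fewest genes with a count, 12757 and 14012, against 18071 to 19083 in the other libraries. The gene csr-1, all isoforms together, stood at 185, 157 and 153 CPM in the mutant libraries, against 185, 209 and 266 CPM in the wild-type libraries. These counts do not separate the a form from the rest, so they do not check the deletion. The defining markers of rectal cells were scarce in all 6 libraries. The regulators egl-38, lin-48, mab-9 and pax-3 stayed at or below 1.20 CPM in every library, and mab-9 had 0 counts in 4 of the 6. The genes whose promoters drove the sort marker were both higher in the mutant. pnc-1 stood at 27.9, 25.2 and 15.7 CPM in the mutant libraries, against 5.31, 9.59 and 6.61 CPM in the wild-type libraries (log2 fold change 1.68 ± 0.30, adjusted p = 0.00616). pcs-1 stood at 42.3, 23.4 and 25.1 CPM in the mutant libraries, against 10.6, 12.7 and 16.8 CPM in the wild-type libraries (log2 fold change 1.19 ± 0.27, adjusted p = 0.0258), so neither gene overlapped between the groups. By contrast the coelomocyte markers cubn-1 and cup-4 stood at 444 to 1074 CPM in the mutant libraries and at 918 to 1973 CPM in the wild-type libraries. They were the highest of the 7 listed. The lowest, eya-1, stood at 6.65 to 8.02 CPM in the mutant libraries and at 12.9 to 14.6 CPM in the wild-type libraries. In the mutant eya-1 was below pnc-1 and pcs-1. The rectal markers listed thus stood far below the highest coelomocyte markers, though not below all of them. No source used here gives the purity of the sort.

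In all, 6 members were lower in the csr-1a mutant and 0 were higher. These were the clathrin heavy chain gene chc-1, the early endosome GTPase gene rab-5, the sorting nexin genes lst-4 and snx-1, the endosomal J-domain gene rme-8 and the HOPS gene vps-16, with falls of 1.55-fold to 1.90-fold. Of the 47 members 46 could be tested, and the 6 lower ones are 13% of these. Of all 11968 genes tested 5.59% were called, 1.55% lower and 4.04% higher. Among members the libraries of the groups did not overlap in 23 cases (50%), all lower in the mutant, against 24.8% of all tested genes in either direction, 12.2% lower and 12.6% higher. The median log2 fold change (mutant over wild type) was -0.42 over the members and 0.0098 over all tested genes, and 35 of the 46 members were negative (76.1%, against 49.5% of all tested genes). At an unadjusted p under 0.05 stood 21 members, all negative (45.7%, against 16.9% of all tested genes in either direction). Values below are counts scaled to library size as CPM, given in the order of replicates 1, 2 and 3 in each group. Adjusted p-values (Benjamini-Hochberg over all genes tested, threshold 0.05) come from the quasi-likelihood test of edgeR, and ± after a log2 fold change is its standard error. Since the libraries are bulk samples, fewer cells of a type and less RNA per cell cannot be told apart.

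The count of 6 moved with single libraries. It was 1 without wild-type replicate 1, where snx-1 alone was left, and 3 on leaving out wild-type replicate 3 or mutant replicate 3. It was 2 (lst-4 and snx-1) without mutant replicate 2 and wild-type replicate 3 together, 3 (lst-4, snx-1 and vps-16) with library totals in place of the scaling, and 12 with DESeq2, which added clic-1, dyn-1, itsn-1, rme-1, snx-3 and snx-6. No member was called higher in any of these fits, nor in the other alternatives run, with edgeR, DESeq2 or limma-voom, and 0 members stood higher at an unadjusted p under 0.05 in the reported fit.

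**Figure D1:**
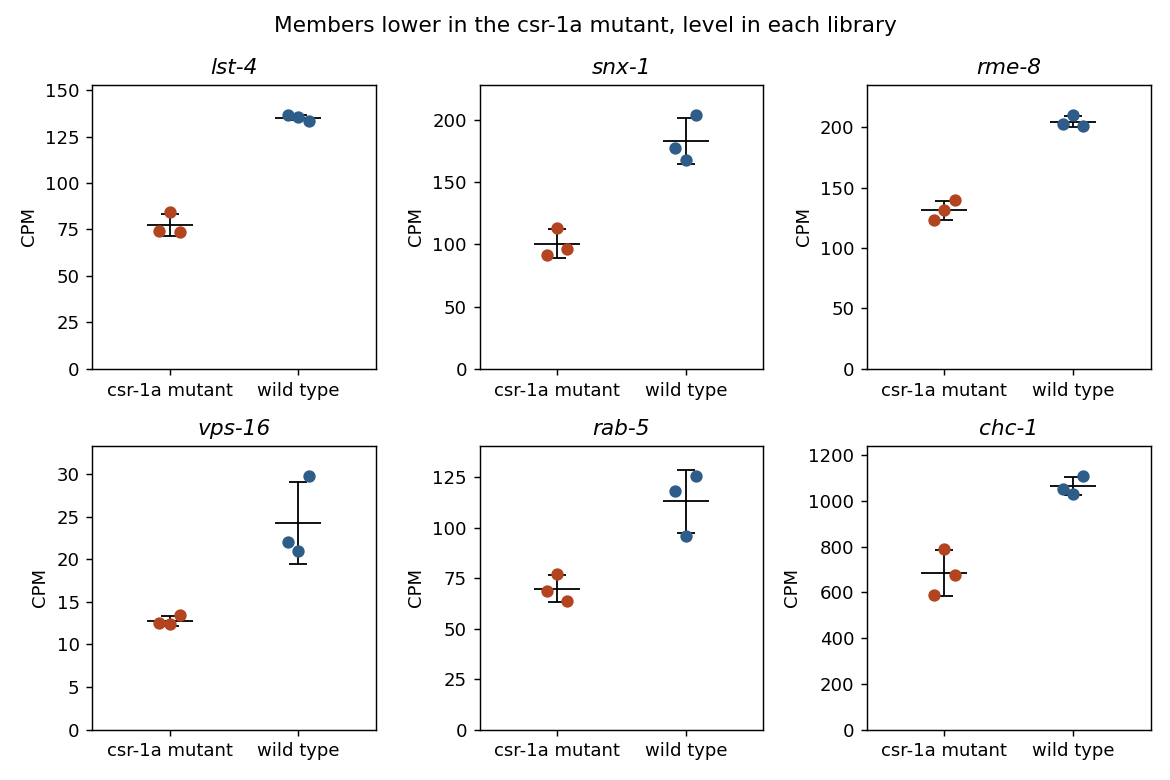
Level (CPM, axis from 0) of the 6 called members in each csr-1a mutant library and each wild-type library, with the mean and SD as bars (n = 3 each). In every panel the mutant points lie below all wild-type points, from vps-16 at 12.3 to 13.4 CPM in the mutant up to chc-1 at 590.2 to 789 CPM.

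The clathrin coat genes were the most and the ninth most abundant members per length in the mutant. chc-1 (WBGene00011867, chromosome III, 10203821 to 10209704, plus strand, WBcel235) encodes the heavy chain, which forms the legs of the clathrin triskelion. It stood at 590.2, 789 and 676 CPM in the mutant libraries, against 1052, 1032 and 1109 CPM in the wild-type libraries. All 3 mutant values lie below all 3 wild-type values, with mutant replicate 1 lowest, and the fall passed the test (log2 fold change -0.64 ± 0.14, adjusted p = 0.0262). The gene took 31.4% to 33.6% of all counts on the 47 members in the mutant libraries and 34.7% to 35.5% in the wild-type libraries. The call ended when any of these was left out: mutant replicate 3 (adjusted p = 0.0879), wild-type replicate 1 (adjusted p = 0.163), wild-type replicate 2 (adjusted p = 0.0519) and wild-type replicate 3 (adjusted p = 0.0969). It also ended without mutant replicate 2 and wild-type replicate 3 together (adjusted p = 0.0827) and with library totals alone (adjusted p = 0.129). The light chain gene clic-1, whose product binds the heavy chain, stood at 26.2, 20.6 and 32.7 CPM in the mutant libraries, against 40.3, 42.2 and 41.01 CPM in the wild-type libraries. The groups do not overlap and the log2 fold change of -0.64 ± 0.19 is close to that of chc-1, but the light chain did not pass (adjusted p = 0.0828), except with DESeq2 (adjusted p = 0.0398).

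Of the 4 subunits of AP2, the adaptor that links clathrin to membrane and cargo, 0 were called. The alpha subunit gene apa-2 stood at 20.3, 21.04 and 22.2 CPM in the mutant libraries, against 28.3, 27.6 and 37.1 CPM in the wild-type libraries. Its groups do not overlap, and its log2 fold change was -0.55 ± 0.18 (adjusted p = 0.122). The beta subunit gene apb-1, which serves both AP1 and AP2 in worms and was the most abundant of the subunits per length, stood at 29.7, 29.3 and 36.2 CPM in the mutant libraries, against 36.8, 38.8 and 37.3 CPM in the wild-type libraries. There too every mutant value lies under every wild-type value, though by little, with -0.25 ± 0.16 on the log2 scale (adjusted p = 0.526). The mu subunit gene dpy-23 and the sigma subunit gene aps-2 overlapped between the groups, with log2 fold changes of 0.15 ± 0.23 and -0.089 ± 1.02. The wide error of aps-2 goes with its counts, which were 179, 0 and 77 in the mutant libraries and 63, 77 and 19 in the wild-type libraries.

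Among the 6 clathrin accessory and scission genes 0 were called, and 4 did not overlap between the groups. The dynamin gene dyn-1, the GTPase that severs the neck of the bud and the most abundant of the 6 per length, stood at 60.9, 74.9 and 62.2 CPM in the mutant libraries, against 88.3, 97.6 and 101.4 CPM in the wild-type libraries. The intersectin gene itsn-1, a scaffold of the coated pit, stood at 34.3, 34.999 and 36.3 CPM in the mutant libraries, against 50.5, 47.9 and 56.1 CPM in the wild-type libraries. Both were lower in every mutant library, with log2 fold changes of -0.54 ± 0.15 and -0.55 ± 0.15, and both narrowly missed the threshold (adjusted p = 0.0624 for dyn-1 and 0.0598 for itsn-1), which both passed with DESeq2 (adjusted p = 0.0245 and 0.0226). The Eps15 gene ehs-1, which partners intersectin, stood at 21.4, 28.4 and 25.7 CPM in the mutant libraries, against 31.2, 34.9 and 32.16 CPM in the wild-type libraries. Its groups do not overlap either, with -0.38 ± 0.17 on the log2 scale (adjusted p = 0.293). For unc-11, the AP180 clathrin assembly protein best known at synapses, the log2 fold change was -0.27 ± 0.16. The values were 0.034 ± 0.24 for amph-1, the membrane-bending amphiphysin that works with RME-1, and 0.25 ± 0.27 for num-1, the Numb adaptor.

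RAB-5 and the proteins around it define the early endosome. rab-5 (WBGene00004268, chromosome I, 9308442 to 9310221, plus strand) stood at 68.8, 77.1 and 63.9 CPM in the mutant libraries, against 118, 95.8 and 126 CPM in the wild-type libraries. Its groups do not overlap, the highest mutant library lying at 77.1 CPM and the lowest wild-type library at 95.8 CPM, and the fall passed the test (log2 fold change -0.69 ± 0.16, adjusted p = 0.0249). That call ended without mutant replicate 3 (adjusted p = 0.109), wild-type replicate 1 (adjusted p = 0.177) and wild-type replicate 3 (adjusted p = 0.0976), without mutant replicate 2 and wild-type replicate 3 together (adjusted p = 0.116) and with library totals alone (adjusted p = 0.083). RME-6 is an exchange factor that loads RAB-5 with GTP at clathrin-coated pits. rme-6 stood at 17.96, 32.11 and 21.6 CPM in the mutant libraries, against 31.8, 39.1 and 46.2 CPM in the wild-type libraries, with mutant replicate 2 just above wild-type replicate 1. At -0.71 ± 0.23 on the log2 scale rme-6 did not pass (adjusted p = 0.123); without mutant replicate 2 it did (adjusted p = 0.0333), as it did without a low-count filter (adjusted p = 0.0279). vps-34, the lipid kinase that makes the phosphoinositide of early endosomes, stood at 20.3, 19.1 and 23.2 CPM in the mutant libraries, against 27.7, 24.7 and 34.2 CPM in the wild-type libraries. Every mutant value of vps-34 lies below every wild-type value, with -0.47 ± 0.19 on the log2 scale (adjusted p = 0.22). eea-1, a tether that RAB-5 recruits, overlapped between the groups, with -0.41 ± 0.22.

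The other RAB-5 exchange factor gene, rabx-5, was close to undetected. It had 1 count in wild-type replicate 1 and 0 counts in the other 5 libraries, where a count of 0 allows up to 3 counts, or 0.0630 to 0.133 CPM in the mutant libraries. It was the member that could not be tested. Of its 3681 bases of merged exons 46.4% overlap those of the gene Y39A1A.24 on the same strand, which had 0 counts in all 6 libraries.

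All 7 retromer and sorting nexin genes had negative log2 fold changes, from -0.86 to -0.46, in 6 of the 7 the groups did not overlap, and 2 were called. snx-1 (WBGene00004927, chromosome X, 1128986 to 1132711, plus strand) encodes a sorting nexin that bends the endosome membrane into retromer tubules. It stood at 91.8, 114 and 96.4 CPM in the mutant libraries, against 178, 168 and 204 CPM in the wild-type libraries, so that every mutant library was well below every wild-type library (log2 fold change -0.86 ± 0.15, adjusted p = 0.00558). Its call held in all 17 alternatives, with adjusted p up to 0.0371. SNX-6 pairs with SNX-1 on those tubules, and snx-6 stood at 23.2, 30.2 and 28.6 CPM in the mutant libraries, against 42.5, 35.9 and 49.8 CPM in the wild-type libraries. With -0.65 ± 0.18 on the log2 scale it did not pass (adjusted p = 0.0698), except with DESeq2 (adjusted p = 0.0332).

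RME-8 carries a J domain that calls Hsp70 to endosomes, where it binds SNX-1. rme-8 (WBGene00004378, chromosome I, 8083576 to 8095610, plus strand) stood at 123, 131 and 139 CPM in the mutant libraries, against 203, 209.7 and 201 CPM in the wild-type libraries. The gap between the groups is wider than the spread within either of them (log2 fold change -0.64 ± 0.13, adjusted p = 0.0152). The call ended without mutant replicate 2 (adjusted p = 0.0536), wild-type replicate 1 (adjusted p = 0.134) and wild-type replicate 2 (adjusted p = 0.0585), without mutant replicate 2 and wild-type replicate 3 together (adjusted p = 0.103) and with library totals alone (adjusted p = 0.0707). snx-3, a small sorting nexin that brings retromer to the Wnt carrier MIG-14, stood at 18.2, 21.8 and 22.6 CPM in the mutant libraries, against 35.2, 32.15 and 31.04 CPM in the wild-type libraries. Its adjusted p of 0.0522 fell just outside the threshold in the reported fit, at a log2 fold change of -0.65 ± 0.17, and inside it with DESeq2 and limma-voom (adjusted p = 0.0131 and 0.0484).

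The retromer core that selects cargo had values nearer to 0, but their standard errors overlapped those of rme-8, snx-3 and snx-6. vps-35, its scaffold, stood at 30.7, 45.99 and 39.2 CPM in the mutant libraries, against 47.7, 59.1 and 52.8 CPM in the wild-type libraries. vps-26, an arm of the same trimer, stood at 17.96, 23.9 and 24.01 CPM in the mutant libraries, against 32.8, 34.04 and 24.4 CPM in the wild-type libraries. Neither overlapped between the groups, though in vps-26 mutant replicate 3 and wild-type replicate 3 were nearly equal, and their log2 fold changes were -0.46 ± 0.18 and -0.47 ± 0.20 (adjusted p = 0.21 and 0.253). vps-29, the third subunit, had only 61 to 119 counts per library and overlapped, with -0.53 ± 0.43; 26.5% of its exons overlap T16H12.9 on the other strand, and no source used here says whether reads were counted by strand.

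**Figure D2:**
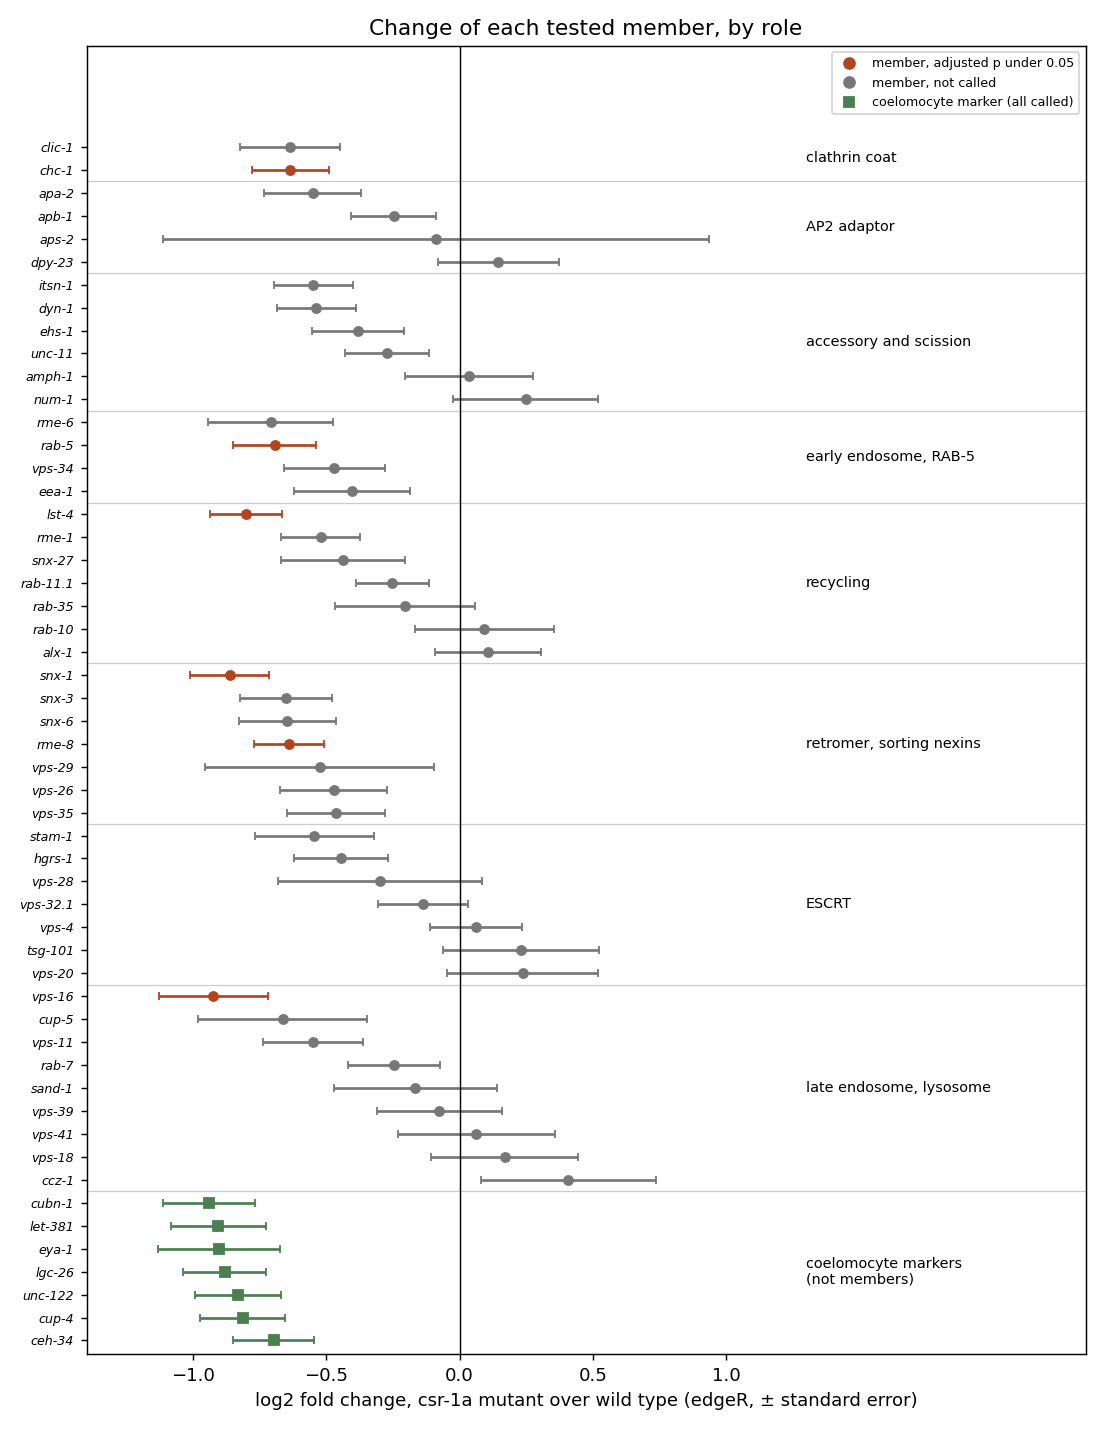
Log2 fold change (csr-1a mutant over wild type, edgeR, bars are standard errors) of the 46 tested members grouped by role, with the called ones in red, above the 7 coelomocyte markers as green squares. All points of the retromer and sorting nexin class lie left of 0 (-0.86 to -0.46), while ESCRT points lie on both sides (-0.55 to 0.24).

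Of the 7 recycling genes 1 was called. lst-4 (WBGene00003086, chromosome IV, 14061000 to 14069860, minus strand) encodes a sorting nexin of the SNX9 kind, which acts with dynamin in membrane remodelling. It stood at 74.2, 84.4 and 73.8 CPM in the mutant libraries, against 136, 136 and 133 CPM in the wild-type libraries. The wild-type libraries lie close to each other and far above the mutant libraries, and the fall had the smallest adjusted p of any member (log2 fold change -0.80 ± 0.14, adjusted p = 0.00492). It was called in all alternatives but the one without wild-type replicate 1 (adjusted p = 0.0514). RME-1, an EHD-type ATPase, releases cargo from recycling endosomes. rme-1 stood at 90.3, 96.6 and 90.1 CPM in the mutant libraries, against 123, 120.4 and 154 CPM in the wild-type libraries. The groups do not overlap, and the log2 fold change of -0.52 ± 0.15 missed the threshold (adjusted p = 0.0702), except with DESeq2 (adjusted p = 0.0331).

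The recycling Rab genes differed less. rab-11.1, a marker of recycling endosomes and the most abundant of the class per length, stood at 70.4, 78.03 and 72.1 CPM in the mutant libraries, against 87.5, 84.5 and 90.6 CPM in the wild-type libraries. The groups do not overlap but lie close, at -0.25 ± 0.14 (adjusted p = 0.412). rab-10, which drives basolateral recycling in the worm intestine, and rab-35, which recycles the yolk receptor, had log2 fold changes of 0.093 ± 0.26 and -0.21 ± 0.26, and both overlapped. So did snx-27, a sorting nexin that ties receptors to retromer (-0.44 ± 0.23), and alx-1, the ALIX gene (0.11 ± 0.20), of which mutant replicate 2 was the highest library at 86.8 CPM.

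Of the 7 ESCRT genes, whose products sort ubiquitin-tagged cargo into internal vesicles, 0 were called, and signs were mixed, 4 negative and 3 positive. The largest differences were in the ESCRT-0 pair that first binds the cargo. hgrs-1 stood at 17.6, 22.5 and 20.6 CPM in the mutant libraries, against 28.7, 26.9 and 26.8 CPM in the wild-type libraries. All mutant libraries were lower, with -0.45 ± 0.18 on the log2 scale (adjusted p = 0.212). Its partner stam-1 stood at 19.4, 26.8 and 17.1 CPM in the mutant libraries, against 28.02, 26.4 and 38.1 CPM in the wild-type libraries, where mutant replicate 2 lies above wild-type replicate 2, with -0.55 ± 0.22 (adjusted p = 0.227). The later complexes overlapped between the groups. vps-32.1, the ESCRT-III filament gene and the most abundant of the 7 per length, stood at 31.4, 36.9 and 30.7 CPM in the mutant libraries, against 37.4, 31.6 and 39.9 CPM in the wild-type libraries, with -0.14 ± 0.17 on the log2 scale. For vps-4, the ATPase that takes the filament apart, the value was 0.062 ± 0.17, and for the ESCRT-III gene vps-20 it was 0.24 ± 0.28. The ESCRT-I genes tsg-101 and vps-28 had log2 fold changes of 0.23 ± 0.29 and -0.30 ± 0.38. The errors of the last 3 genes leave room for differences of either sign.

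Of the 9 genes of late endosomes and lysosomes 1 was called. vps-16 (WBGene00006516, chromosome III, 6433239 to 6436502, plus strand) encodes a core subunit of the HOPS tether and stood at 12.5, 12.3 and 13.4 CPM in the mutant libraries, against 22.01, 20.9 and 29.7 CPM in the wild-type libraries. The mutant libraries lie close together and below the lowest wild-type library, at the largest fold of any member (log2 fold change -0.92 ± 0.21, adjusted p = 0.0231). The call ended without mutant replicate 1 (adjusted p = 0.0536), mutant replicate 2 (adjusted p = 0.063), mutant replicate 3 (adjusted p = 0.0685), wild-type replicate 1 (adjusted p = 0.093) and wild-type replicate 3 (adjusted p = 0.0944), and without mutant replicate 2 and wild-type replicate 3 together (adjusted p = 0.12). vps-11, a core subunit of the same tether, stood at 23.5, 36.6 and 33.9 CPM in the mutant libraries, against 45.05, 46.4 and 46.1 CPM in the wild-type libraries. Its groups do not overlap, at -0.55 ± 0.19 on the log2 scale (adjusted p = 0.134). The remaining HOPS genes overlapped, with 0.17 ± 0.28 for the core subunit vps-18 and -0.076 ± 0.23 and 0.063 ± 0.29 for vps-39 and vps-41, the ends that bind Rab GTPases.

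rab-7, the GTPase of late endosomes and the most abundant of the class per length, stood at 33.5, 40.9 and 34.9 CPM in the mutant libraries, against 43.2, 36.2 and 50.04 CPM in the wild-type libraries. Wild-type replicate 2 lies below mutant replicate 2, and the log2 fold change was -0.25 ± 0.17 (adjusted p = 0.582). SAND-1 and CCZ-1 together exchange RAB-5 for RAB-7 on the maturing endosome, and their genes sand-1 and ccz-1 overlapped, at -0.17 ± 0.31 and 0.41 ± 0.33. cup-5, the mucolipin channel of lysosomes whose loss was first seen as swollen vacuoles in coelomocytes, stood at 6.38, 4.27 and 9.92 CPM in the mutant libraries, against 10.98, 10.7 and 10.9 CPM in the wild-type libraries. Every mutant library was lower, but the mutant values range over more than the distance to wild type, and the log2 fold change of -0.66 ± 0.32 did not pass (adjusted p = 0.325).

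Levels of different genes were compared per length, as CPM per kilobase of merged exons (WBcel235 annotation). In the mutant the order began with chc-1 (127 CPM per kb), rab-5 (64.7), rab-11.1 (59.7), snx-1 (57.7) and rab-7 (46.0). In wild type it began with chc-1 (197 CPM per kb), snx-1 (104.9), rab-5 (104.7), rab-11.1 (71.1) and rab-7 (54.6), where snx-1 and rab-5 do not differ beyond their spread. Per length chc-1 ranked 172 of the 11968 genes tested in the mutant and 97 in wild type. The lowest in the mutant, above rabx-5, were vps-41 (2.404 CPM per kb in the mutant and 2.296 CPM per kb in wild type), num-1 (2.41 CPM per kb in the mutant and 2.03 CPM per kb in wild type) and cup-5 (2.54 CPM per kb in the mutant and 4.02 CPM per kb in wild type). In wild type the lowest were num-1, vps-41 and then ccz-1 (3.28 CPM per kb in the mutant and 2.47 CPM per kb in wild type). The AP2 subunits spanned 4.24 to 10.2 CPM per kb in the mutant and 4.52 to 12.1 CPM per kb in wild type, far below the clathrin they bind.

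**Figure D3:**
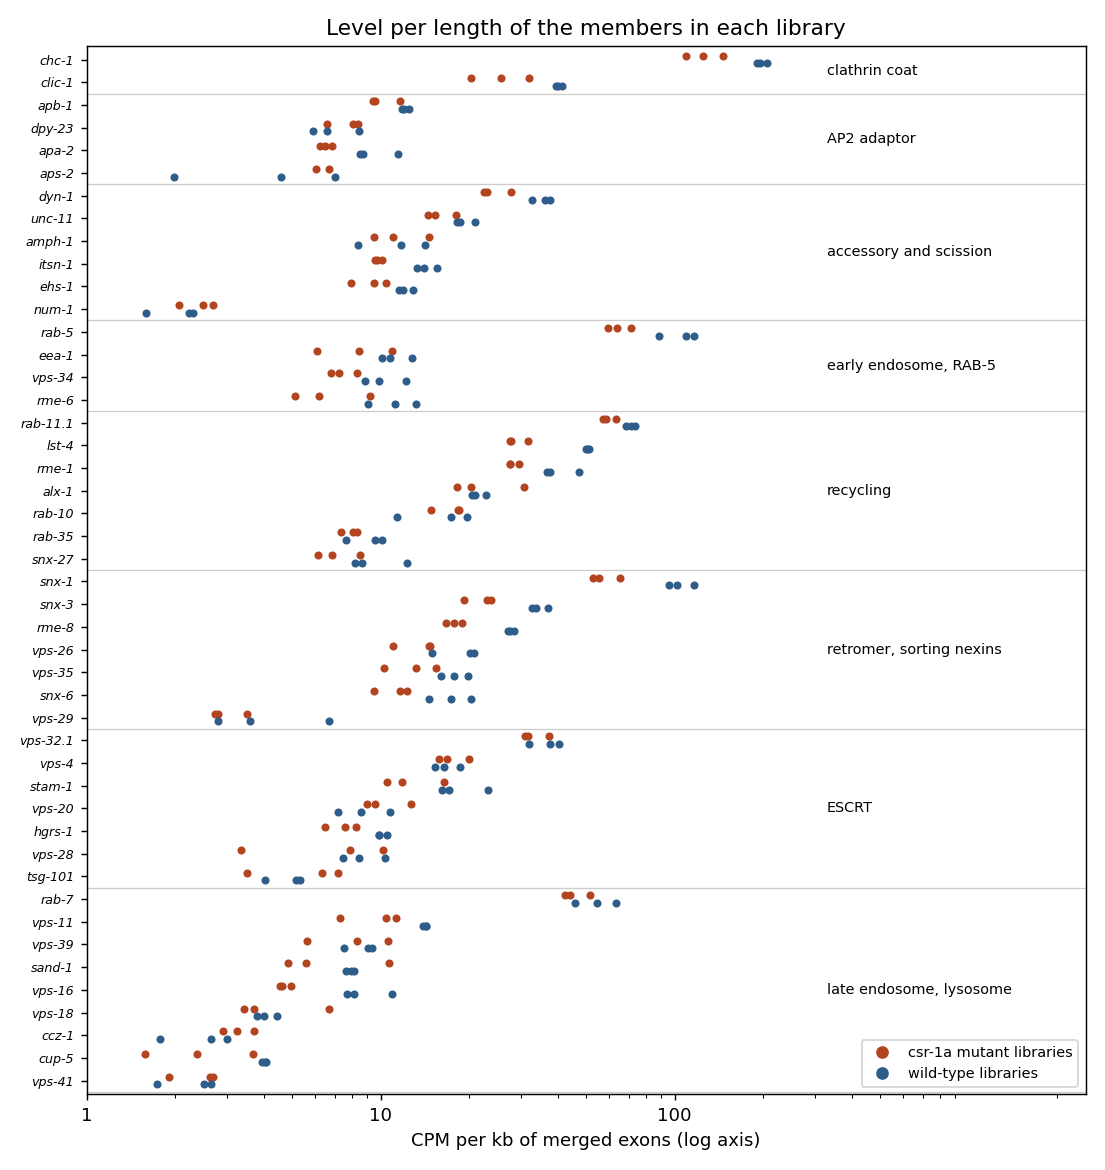
Level per length (CPM per kb of merged exons, log axis) of 46 members in each csr-1a mutant library (red) and wild-type library (blue), grouped by role; rabx-5 and the mutant library in which aps-2 had 0 counts are not drawn. Clathrin heavy chain lies highest at 109 to 146 CPM per kb in the mutant and above all mutant values in wild type.

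Ratios of one member to another within a library do not depend on how libraries are scaled. Of such ratios 10 were taken between pairs of members, chosen after the levels were seen, and in 5 of them the groups did not overlap. Of the 5, all but that of vps-32.1 to vps-20 hold a called member (rab-5, snx-1 or vps-16), so those are not independent of the calls. The share of other gene pairs without overlap was not computed. The ratios are given as a description, with no test. The per-length ratio of rab-5 to rab-7, the GTPases that follow each other on a maturing endosome, was 1.504, 1.38 and 1.34 in the mutant libraries, against 2.003, 1.93 and 1.84 in the wild-type libraries. Lower in every mutant library, it averaged 1.41 ± 0.0846 in the mutant and 1.92 ± 0.0833 in wild type (SD, n = 3 each). The ratio of rab-11.1 to rab-5 was 0.899, 0.888 and 0.989 in the mutant libraries, against 0.649, 0.774 and 0.633 in the wild-type libraries, higher in every mutant library. The ratio of snx-1 to its partner snx-6 was 5.57, 5.29 and 4.74 in the mutant libraries, against 5.88, 6.56 and 5.75 in the wild-type libraries. The ratio of rab-7 to vps-16 was 9.19, 11.4 and 8.93 in the mutant libraries, against 6.75, 5.95 and 5.78 in the wild-type libraries, and that of vps-32.1 to vps-20 was 3.52, 2.94 and 3.25 in the mutant libraries, against 4.42, 4.45 and 3.74 in the wild-type libraries. The remaining ratios overlapped between the groups. The per-length ratio of clathrin heavy to light chain was 4.26, 7.23 and 3.91 in the mutant libraries, against 4.93, 4.62 and 5.11 in the wild-type libraries, where mutant replicate 2 alone was high. That of vps-35 to vps-26 was 0.937, 1.05 and 0.894 in the mutant libraries, against 0.798, 0.952 and 1.18 in the wild-type libraries.

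Markers of other cell types moved in the same comparison. All 7 coelomocyte markers were lower in the mutant, with log2 fold changes from -0.94 to -0.70 and none at 0 counts in any library. They took 0.716%, 1.11% and 1.09% of non-ribosomal counts in the mutant libraries, against 1.58%, 1.597% and 1.63% in the wild-type libraries. The 47 members took 0.777%, 1.05% and 0.950% in the mutant libraries, against 1.17%, 1.23% and 1.19% in the wild-type libraries. Both lists were thus lower in every mutant library, and both were lowest in mutant replicate 1. The 4 members vps-16, snx-1, lst-4 and rme-6 had log2 fold changes as low as the range of the coelomocyte markers. The values of the other members tested lay above that range, whose upper end was ceh-34 (-0.70 ± 0.15). The standard errors of some of these, such as rab-5 (-0.69 ± 0.16) and chc-1 (-0.64 ± 0.14), reached into the range. Per coelomocyte marker count there were 1.09, 0.952 and 0.875 member counts in the mutant libraries, against 0.741, 0.771 and 0.732 in the wild-type libraries, higher in every mutant library. Without chc-1 these ratios were 0.746, 0.632 and 0.589 in the mutant, against 0.478, 0.497 and 0.478 in wild type. The part of the coelomocyte difference in the values of the members was not tested.

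Of 20 muscle markers 19 were higher in the mutant and 0 lower, and together they took 4.20% to 9.19% of non-ribosomal counts in the mutant libraries, against 0.312% to 0.386% in the wild-type libraries. Mutant replicate 1, with the highest muscle share, had the lowest share of the members. With the 20 muscle markers left out of totals and scaling, the same 6 members were called. Any other transcripts of muscle cells stayed in, so this fit cannot say what part muscle RNA has in the values. As a share of the counts outside ribosomal RNA and the muscle markers, the members took 0.856%, 1.10% and 0.995% in the mutant libraries, against 1.18%, 1.23% and 1.20% in the wild-type libraries, still without overlap. Of 10 neuron markers 1 was lower (rgef-1, log2 fold change -0.99 ± 0.16) and 0 higher, with shares of 0.130% to 0.180% in the mutant and 0.184% to 0.250% in wild type. In edgeR 4 of the 10 stood at an unadjusted p under 0.05, against 16.9% of all tested genes. Negative log2 fold changes were seen in 7 neuron markers and positive ones in 3. Of 4 tested rectal markers 2 were higher, pnc-1 and pcs-1, and 0 lower, while the members called were lower. Of 7 tested hypodermis markers 1 was higher (rol-6), and of 8 tested intestine and 6 tested germline and sperm markers 0 were called in either direction by edgeR, with 1 in each list at an unadjusted p under 0.05. The part of these lists in the values of the members was not tested.

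**Figure D4:**
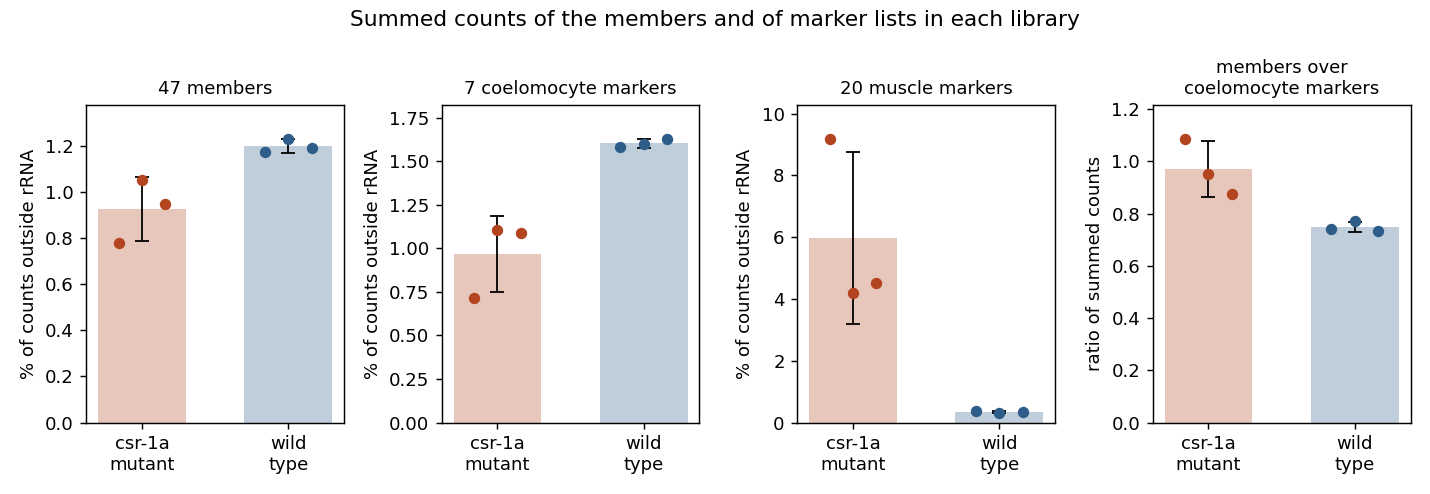
Counts summed over the 47 members, the 7 coelomocyte markers and the 20 muscle markers as a percentage of counts outside ribosomal RNA, and the ratio of member to coelomocyte counts, for each library, with bars for means and SD (n = 3 each; axes from 0). Members take 0.777% to 1.05% in the mutant and 1.17% to 1.23% in wild type, while the ratio runs the other way, 0.875 to 1.09 in the mutant and 0.732 to 0.771 in wild type.

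Split by mean level into sets of 23, the upper set (26.8 CPM and above) had a median log2 fold change of -0.54 and held 5 of the 6 calls, and the lower set had a median of -0.17 and held vps-16. The median standard error was 0.17 in the upper set and 0.26 in the lower. Across the 46 members Spearman's rho between mean level and log2 fold change was -0.51, a description over genes of the same 6 libraries. By chromosome, the 12 members on I held 2 calls, the 8 on III 2, the 7 on IV 1, the 7 on X 1, and the 6 on II and the 7 on V 0. The median log2 fold change was negative on each, from -0.54 on X to -0.31 on II. Values over all tested genes were not computed by chromosome, so these numbers do not set any chromosome apart.

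Outside the members, 77 other genes of the same pathways were listed by name, of which 73 were tested. Of these 3 were lower and 0 higher, against 1.55% lower and 4.04% higher of all tested genes. Their median log2 fold change was -0.22, and 55 of the 73 were negative, against 0.0098 and 49.5% over all tested genes. Without overlap between the groups, 19 of all 77, untested genes included, were lower and 3 higher, against 12.2% and 12.6% of all tested genes. A lean to negative values was thus not particular to the members. dab-1, the Disabled adaptor that couples LDL-receptor-type cargo to clathrin, stood at 176, 222 and 207 CPM in the mutant libraries, against 354, 321 and 357 CPM in the wild-type libraries. It was lower in every mutant library (log2 fold change -0.77 ± 0.14, adjusted p = 0.00813), a call lost on leaving out wild-type replicate 1 (adjusted p = 0.0775) or leaving out mutant replicate 2 together with wild-type replicate 3 (adjusted p = 0.0547). unc-26, the synaptojanin that strips the coat by removing phosphates from phosphoinositides, stood at 61.4, 78.5 and 58.04 CPM in the mutant libraries, against 113, 92.8 and 105 CPM in the wild-type libraries. The groups do not overlap (log2 fold change -0.65 ± 0.16, adjusted p = 0.0424), but the call ended without mutant replicate 1 (adjusted p = 0.0726), mutant replicate 3 (adjusted p = 0.156), wild-type replicate 1 (adjusted p = 0.276), wild-type replicate 2 (adjusted p = 0.056) and wild-type replicate 3 (adjusted p = 0.12). It also ended without mutant replicate 2 together with wild-type replicate 3 (adjusted p = 0.0722), with library totals alone (adjusted p = 0.156), with non-robust dispersion (adjusted p = 0.0502) and with ribosomal RNA left out (adjusted p = 0.0507). snx-14, a sorting nexin gene, stood at 19.6, 19.8 and 19.1 CPM in the mutant libraries, against 33.08, 29.3 and 39.3 CPM in the wild-type libraries. The mutant libraries lie close together, below all wild-type ones (log2 fold change -0.80 ± 0.18, adjusted p = 0.0224), and the call ended without mutant replicate 2 (adjusted p = 0.0572), mutant replicate 3 (adjusted p = 0.0817), wild-type replicate 1 (adjusted p = 0.133) and wild-type replicate 3 (adjusted p = 0.0904). That call was also lost without mutant replicate 2 together with wild-type replicate 3 (adjusted p = 0.122) and with library totals alone (adjusted p = 0.0594).

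By role, the other listed adaptors and clathrin accessory genes had 2 of 14 lower, and the other recycling and retromer genes 1 of 10. The counts were 0 lower and 0 higher in the other 9 ESCRT genes, 15 Rab genes and regulators, 16 tethers and SNAREs, and 9 phosphoinositide enzymes, with 1, 4, 2 and 2 of them at an unadjusted p under 0.05 in edgeR. With the largest positive change of the 77, piki-1, a class II phosphoinositide 3-kinase named here after its value was seen, stood at 25.4, 17.04 and 17.6 CPM in the mutant libraries, against 12.1, 11.5 and 11.3 CPM in the wild-type libraries. It was higher in every mutant library without passing (log2 fold change 0.78 ± 0.22, adjusted p = 0.0705). It passed with DESeq2, with library totals alone, without a low-count filter and with a stricter filter. The largest negative change of the 77, also in a phosphoinositide enzyme, was -1.24 on the log2 scale and was not called.

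**Figure D5:**
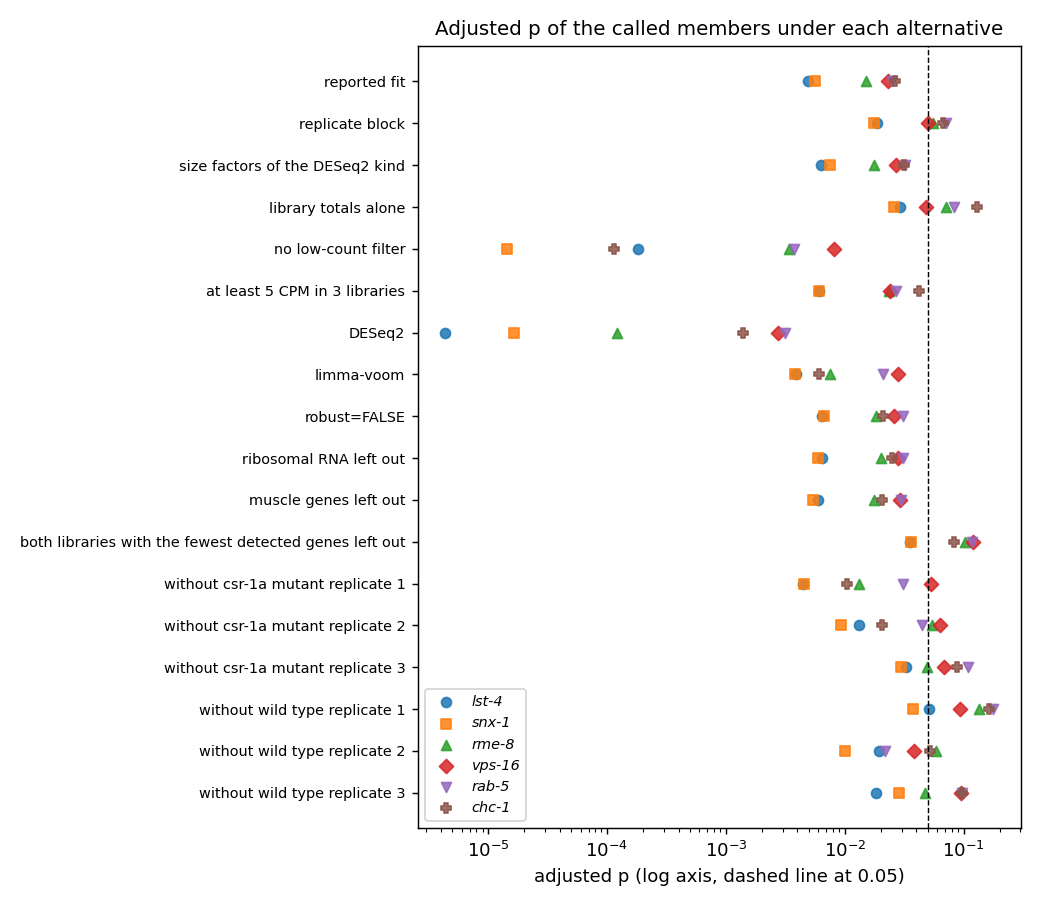
Adjusted p (log axis) of the 6 called members in the reported fit and in each alternative, with the threshold of 0.05 as a dashed line. snx-1 stays left of the line throughout, lst-4 crosses it without wild-type replicate 1 (0.0514), and the other 4 cross it in 6 or 7 of the 17 alternatives.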

How the data were processed

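The authors deposited 1 table of raw read counts per gene, unnormalised, with 6 columns matched to samples by name. Per the submitters' processing notes, the tools were DESeq2, featureCounts, Subread 2.0.0, STAR and fastp 0.20.1, with no order given. Genome build, annotation and strand setting were not given in the sources used here. RNA was taken up in TRIzol and made into libraries with the VAHTS Universal V8 kit, per the labels. Symbols, coordinates (1-based) and exon lengths came by identifier from WBcel235 (Ensembl release 115), which may differ from the counted annotation.

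Counts were tested with edgeR 4.0.16 (R 4.3.3): filterByExpr by group (minimum count 10, minimum total 15), trimmed mean of M values on totals that include ribosomal RNA, glmQLFit with robust=TRUE and glmQLFTest on group, Benjamini-Hochberg over 11968 genes. The standard error is the absolute log2 fold change over the root of the F statistic. CPM were scaled likewise. The fit was tried on simulated counts. Where the simulated difference was 2-fold, it found 24 out of 100 such genes, and at 4-fold it found 71 out of 100. Among 11000 unchanged genes it called 3. The falls of the called members were under 2-fold, so a member that was not called is not thereby shown to be unchanged. Every pair of replicates differed by more than sampling noise (chi-square per degree of freedom at least 7.85). Counting floors cover counting error only.

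Members, lists and tests were chosen with earlier results of these data known. Named with per-library values are members at adjusted or unadjusted p under 0.05, the member highest per length in each role class, and called genes of the other list. aps-2, cup-5 and rabx-5 were added after their values were seen. Of 81 other symbols 77 matched, and of 69 marker symbols all but opt-2. Alternatives were a replicate block, other scalings, filters and tools, ribosomal RNA or the muscle markers left out, and libraries left out. Replicate numbers did not pair the samples.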

Additional observations from a re-analysis of the deposited data

How the results depend on the processing

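The 6 lower members became 3 with the replicate block, 3 with library totals alone, 12 with DESeq2 and 2 with both libraries of fewest detected genes left out, and 1 to 5 without single libraries; the count stayed within 1.5 times under the other alternatives, and 0 members were called higher in any of the 17. The other endocytic genes, 3 lower and 0 higher, became 1 lower with the replicate block, 1 lower and 1 higher with library totals alone, 6 lower and 1 higher without a low-count filter, 1 higher with at least 5 CPM in 3 libraries, 5 lower and 1 higher with DESeq2, and 0 lower without both of those libraries, with 0 to 4 lower without single libraries. Replicate numbers do not pair the samples: deviations of same-numbered libraries correlated at 0.014, -0.038 and -0.14, so lost calls under the block say nothing of effect size. The calls lost under it were chc-1 (adjusted p = 0.0672), rab-5 (0.0707), rme-8 (0.0554), unc-26 (0.0919) and snx-14 (0.0609). The cause of these changes was not tested, apart from the fewer libraries of some fits.

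Of 49 genes, 10 members not called in any alternative changed sign at least once. With library totals alone vps-39 stood at 0.040 on the log2 scale, and with the stricter filter at 0.0099. Without both of those libraries alx-1 stood at -0.070, aps-2 at 0.18, rab-10 at -0.11, vps-18 at -0.18 and vps-29 at 0.010. Without single libraries the ranges were -0.098 to 0.28 for alx-1, -0.15 to 0.20 for amph-1, -0.57 to 0.54 for aps-2, -0.12 to 0.31 for rab-10, -0.54 to 0.054 for sand-1, -0.14 to 0.35 for vps-18, -0.61 to 0.056 for vps-28, -0.26 to 0.14 for vps-39 and -0.11 to 0.22 for vps-41.
All 7 retromer and sorting nexin genes were negative under every scaling run. The stricter filter left out rabx-5, aps-2 and vps-29, so it gives no value for those. Depth limits the members with few counts, such as aps-2 and vps-29.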
